A study of Sus scrofa with 24 samples.

Results

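Growth factor receptors of the liver were followed together with the ligand HGF and the cell cycle inhibitor CDKN2B in the livers of 24 pig fetuses. The genes were found by their symbols in the platform annotation of the array. The 9 genes listed were the receptors EGFR, ERBB3, MET, FGFR4, INSR, IGF1R and GHR, the MET ligand HGF, and CDKN2B. A probe set was found for 8 of the 9, and FGFR4 was left out because no probe set carries its symbol. The 8 genes have 25 probe sets, and the array names 13755 genes in all. The filter on low signals asked for a log2 level of 6 or more in 18 or more of the 24 arrays, which 3379 genes met. ERBB3, MET, HGF, INSR, IGF1R and CDKN2B were the 6 members that passed, and EGFR and GHR did not.

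The fetuses were collected at 63 dpc (days post conception) as the F2 generation of a cross between the breeds German Landrace (DL) and Pietrain (Pi), and liver RNA was hybridized to the Affymetrix Snowball array, 1 fetus per array. The study selected same-sex littermates of low weight (intrauterine growth restricted, IUGR) and of weight appropriate for gestational age (AGA). In the labels used here each array carries only a fetus number, so IUGR and AGA fetuses, sexes and dams are not compared, and all values describe the spread over the 24 livers. Littermates share a dam, so the livers are not fully independent and the p-values are approximate. The study reported EGFR and CDKN2B as higher, and RB1, USP8 and GSK3B as lower, in IUGR livers. Genes that differ between the growth groups or sexes also vary together over the 24 livers. Such differences cannot be told apart here from other ways in which genes vary together.

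Receptor tyrosine kinases such as EGFR, MET, INSR and IGF1R bind a ligand outside the cell and phosphorylate themselves and adaptor proteins inside it, which feeds the RAS-MAPK and PI3K-AKT cascades. In liver, EGFR and MET carry the main signals for hepatocyte division and survival, INSR carries the response to insulin, and GHR acts through JAK2 and STAT5 to switch on IGF1. CDKN2B acts at the other end of these signals, where it holds CDK4 and CDK6 inactive and so keeps RB1 from being phosphorylated.

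As a check of the labelled tissue, 7 of 7 hepatocyte markers passed the filter, with a median log2 level of 13.02 for TTR, 13.43 for SERPINA1 and 12.68 for ALB. Markers of erythroid cells, which mature in the fetal liver, passed for 7 of 9 genes, and HBB had a median of 12.27. Of the other marker lists, 4 of 4 granulocyte genes passed, as did 6 of 9 stellate and mesenchymal, 5 of 7 endothelial, 7 of 10 cell cycle, 2 of 7 macrophage and 0 of 5 biliary genes. Fetuses 311 and 312 stood apart, with granulocyte scores (the mean of the standardized levels of MPO, S100A8, S100A9 and S100A12) of 2.97 and 2.90 against 0.771 or less in the other livers. They also lay at -14.2 and -13.6 on the first principal component of the filtered genes, against -9.27 to 8.09 in the others. Calls and scores with EGFR and MET are given with and without these livers. In whole tissue, fewer cells of a type and less RNA per cell cannot be told apart.

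The levels that follow are log2 values after RMA, in which the distributions of the arrays were made alike, so a difference of 1 is a 2-fold difference in signal. Signals of different probe sets cannot be set against each other, so each gene is compared only with itself across livers. Each gene is represented by its probe set with the highest mean. Most of the 69 background controls were low (median 1.55), yet each array had bright ones, with a 95th percentile of 6.52 to 6.89, so a level between 6 and 7 is not clearly above background. For comparison, the median span from the lowest to the highest liver was 1.64-fold over the 3379 filtered genes.

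**Figure D1:**
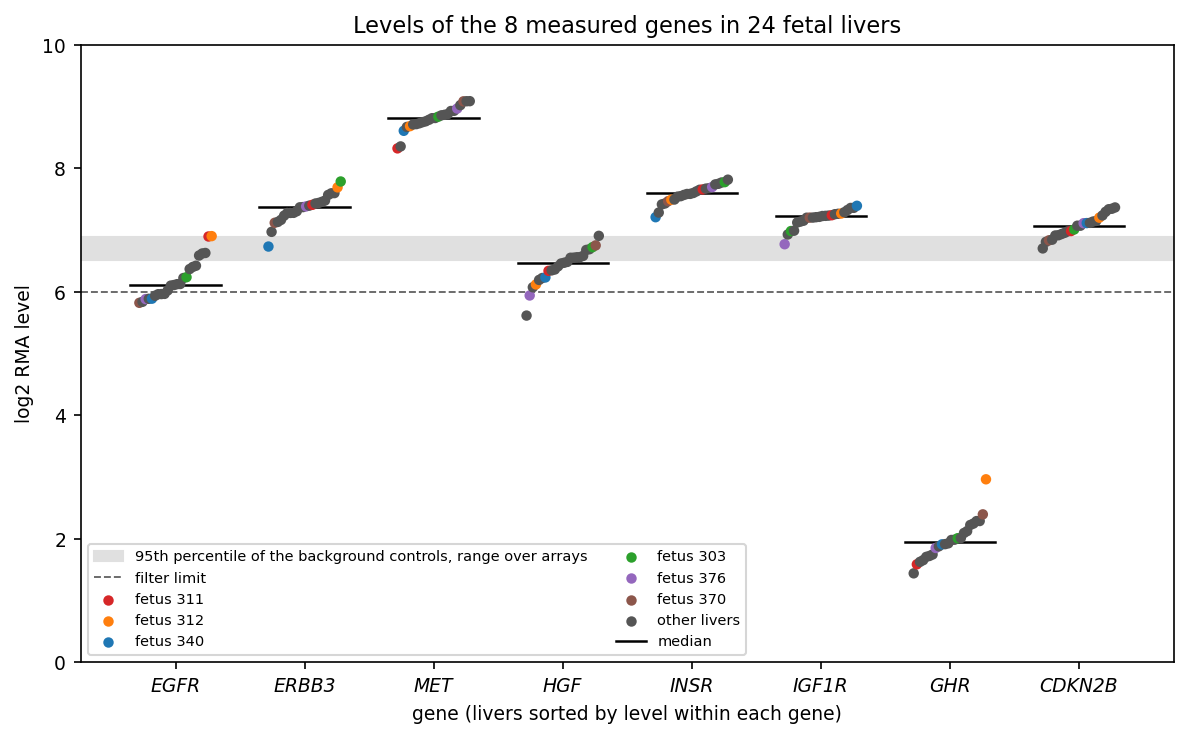
Log2 RMA level (y axis) of EGFR, ERBB3, MET, HGF, INSR, IGF1R, GHR and CDKN2B in each of the 24 livers, sorted within each gene along the x axis, with a black line at the median, a dashed line at the filter limit of 6 and a grey band over the range of the 95th percentile of the background controls. GHR lies far below the limit, most livers of EGFR and HGF lie at or below the band, and fetus 340 (blue) is lowest in ERBB3 and INSR and highest in IGF1R.

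EGFR, the receptor of epidermal growth factor and related ligands, was low in most livers. Its log2 level ranged from 5.82 in fetus 370 to 6.90 in fetus 312 around a median of 6.12. The highest values stood together, with 6.90 in fetus 311 as well as in 312, and the next was 6.63 in fetus 281. The lowest levels were close to each other, with 5.84 in fetus 283 and 5.88 in fetus 376. EGFR spanned 2.12-fold, but it reached 6 in 15 arrays and exceeded the 95th percentile of the background in 2, so the lower end of this span cannot be read as an exact level. The other EGFR probe sets had medians of 3.88, 1.33 and 1.24, reached 6 in 0 arrays, and correlated with the one used at an r of 0.354, 0.150 and -0.132.

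ERBB3, a receptor of neuregulins with little kinase activity of its own that signals in dimers with other members of its family, ranged from 6.73 in fetus 340 to 7.79 in fetus 303 around a median of 7.38. The livers between the quartiles lay within a narrow band, from 7.27 to 7.46. At the low end fetus 340 was followed by 327 at 6.97, and at the high end fetus 303 was followed by 312 at 7.69. ERBB3 spanned 2.08-fold, and 1.65-fold without its lowest and highest liver. A second probe set of ERBB3 reached 6 in 4 arrays and varied with the first at an r of 0.831.

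MET, the receptor of hepatocyte growth factor, had a few low livers. It ranged from 8.32 in fetus 311 to 9.09 in fetus 283 around a median of 8.82, a 1.70-fold span. Fetuses 311 and 320, at 8.32 and 8.36, were set off from the next lowest, fetus 340 at 8.61, while fetuses 283, 363 and 370 all stood at 9.09. The second MET probe set passed the filter too and gave nearly the same order of livers, with fetuses 311, 320 and 340 lowest at 8.08, 8.25 and 8.50. The pair of probe sets correlated at an r of 0.961 (rho 0.928), and the two-sided permutation p of both was 1e-05, the lowest value possible with 100000 resamples.

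HGF, the ligand of MET, which mesenchymal cells of the liver release, had the widest span of the filtered members. It ranged from 5.62 in fetus 338 to 6.91 in fetus 274 around a median of 6.47, or 2.45-fold. Fetus 338 lay alone at the low end, with 5.94 in fetus 376 as the next, and without the lowest and the highest liver the span was 1.76-fold. HGF reached 6 in 22 arrays but exceeded the 95th percentile of the background in 4. Its second probe set had a median of 1.15 and an r of 0.0305 with the first.

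INSR, the insulin receptor, ranged from 7.21 in fetus 340 to 7.82 in fetus 384 around a median of 7.59, a 1.52-fold span and the smallest among the members that passed. Fetuses 340 and 352, at 7.21 and 7.28, lay below fetus 327 at 7.42. Its probe sets did not give the same order of livers. The second correlated with the one used at an r of 0.456 (permutation p = 0.0252, rho 0.420) and the third at an r of -0.0333 (p = 0.877, rho 0.0217). Both passed the filter, but the third exceeded the 95th percentile of the background in 2 arrays, against 21 for the second. The levels of the third are therefore not clearly above background. Results for INSR therefore hold for 1 of its probe sets.

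IGF1R, the receptor through which both IGF1 and IGF2 act, ranged from 6.77 in fetus 376 to 7.39 in fetus 340 around a median of 7.22. Most livers were alike, with quartiles of 7.15 and 7.27, and 4 livers formed a low tail, with 6.77 in fetus 376, 6.93 in 355, 6.98 in 303 and 6.99 in 329. The span was 1.54-fold, and 1.35-fold without the lowest and the highest liver. A second probe set, with its lowest levels in fetuses 355, 329 and 303, correlated at an r of 0.816 (permutation p = 1e-05, rho 0.702). The third, which also passed, exceeded the 95th percentile of the background in 0 arrays and correlated at an r of 0.336 (p = 0.111, rho 0.506). In all, 5 such probe set pairs were tested over the 24 livers.

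GHR, the growth hormone receptor, was at the level of the background on this array. Its log2 level ranged from 1.44 in fetus 283 to 2.96 in fetus 312 around a median of 1.95, and its other probe sets had medians of 1.41 and 0.948. It reached 6 in 0 of the 24 arrays, so these values give no GHR level above background and its 2.88-fold span is not read as a difference between livers.

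CDKN2B, which encodes the inhibitor p15, ranged from 6.70 in fetus 352 to 7.37 in fetus 320 around a median of 7.07, a 1.58-fold span near the median of all genes. Fetuses 355 and 384, at 7.35 and 7.34, lay close to the highest liver, and fetuses 272 and 370, at 6.81 and 6.84, close to the lowest. A second CDKN2B probe set, at a median of 4.44, correlated with it at an r of 0.241. No member split the livers into separate groups by a wide gap, and the largest inner gap was 21.3% of the range, in IGF1R.

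Some livers stood at the ends of several members, and whether more did so than unrelated ranks would give was not tested. Fetus 340 was lowest in ERBB3 and INSR, highest in IGF1R and the third from below in MET. Fetus 303 was highest in ERBB3, second highest in INSR, the third from above in HGF and the third from below in IGF1R. Fetus 370 was lowest in EGFR and the third from below in ERBB3 and CDKN2B, but second highest in HGF and the third from above in MET. Fetus 376 was lowest in IGF1R and second lowest in HGF. Fetus 272 was second lowest in CDKN2B, the third from below in HGF and second highest in IGF1R. Fetuses 311 and 312 held the highest EGFR levels and rank 1 and rank 5 from below in MET.

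Whether members varied together was tested with limma, in which every filtered gene was fitted on the level of 1 member over the 24 livers and p-values were adjusted over all genes by the Benjamini-Hochberg method. A pair was called when the adjusted p was under 0.05 in both directions, with each gene in turn as the predictor. Of the 15 pairs among the 6 filtered members, 1 was called, ERBB3 with INSR. In the fit on ERBB3, 9.06% of all genes were called higher and 9% lower, and in the fit on INSR 2.1% were called higher and 1.48% lower, so a call is not rare for either gene. EGFR and GHR did not pass the filter and could be used only as predictors, which left 13 further pairs without a test in both directions.

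ERBB3 and INSR rose and fell together. INSR was 7.21 in fetus 340, where ERBB3 was 6.73, and 7.78 in fetus 303, where ERBB3 was 7.79. Other livers followed more loosely, since fetus 352 had the second lowest INSR level, 7.28, at a middle ERBB3 level of 7.37, and fetus 312 had an INSR level of 7.49 at the second highest ERBB3 level, 7.69. Over 24 livers r was 0.611 (p = 0.00157) and rho 0.492 (p = 0.0159) in two-sided permutation tests, and the limma adjusted p-values were 0.0204 and 0.0433. Without fetuses 303 and 340, the 2 farthest from the median of ERBB3, the relation was weaker, at an r of 0.366. Leaving out both ends also narrows the range of ERBB3, which can lower r by itself. This fall therefore cannot show how far the relation rests on these livers. Without fetus 303 alone r was 0.571 at a limma adjusted p of 0.108. Without fetus 340 alone r was 0.443 at a limma adjusted p of 0.171. Removal of any 1 of 12 livers (281, 303, 307, 327, 329, 340, 355, 360, 363, 370, 376 or 384) ended the call. For 9 of these, all but 303, 327 and 340, r stayed at 0.589 to 0.617 and the adjusted p moved to between 0.0502 and 0.0661, just over the threshold. Over all alternatives the adjusted p ran from 0.0111 to 0.324.

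EGFR and MET varied in opposite directions. This pair was not among those planned and was named with its values known. The livers with the highest EGFR, 312 and 311, had MET levels of 8.68 and 8.32, and fetus 320, with 6.59 for EGFR, had 8.36. At the other end, MET was 9.09 in fetuses 370 and 283, the 2 livers with the lowest EGFR. Fetus 340 departed from this, with 5.89 for EGFR and 8.61 for MET. EGFR exceeded the 95th percentile of the background in 2 arrays, so its low levels here cannot be read as exact. Over 24 livers r was -0.655 (p = 0.0004) and rho -0.573 (p = 0.00422) in two-sided permutation tests. With EGFR as predictor the limma adjusted p of MET was 0.00711, in a fit that called 8.43% of all genes higher and 8.17% lower with EGFR. Without fetuses 311 and 312 r was -0.549 and the adjusted p 0.100, and without fetus 311 alone they were -0.553 and 0.0572. With the granulocyte score as a covariate r was -0.538 at an adjusted p of 0.111. Over all alternatives the adjusted p ran from 0.00265 to 0.259.

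**Figure D2:**
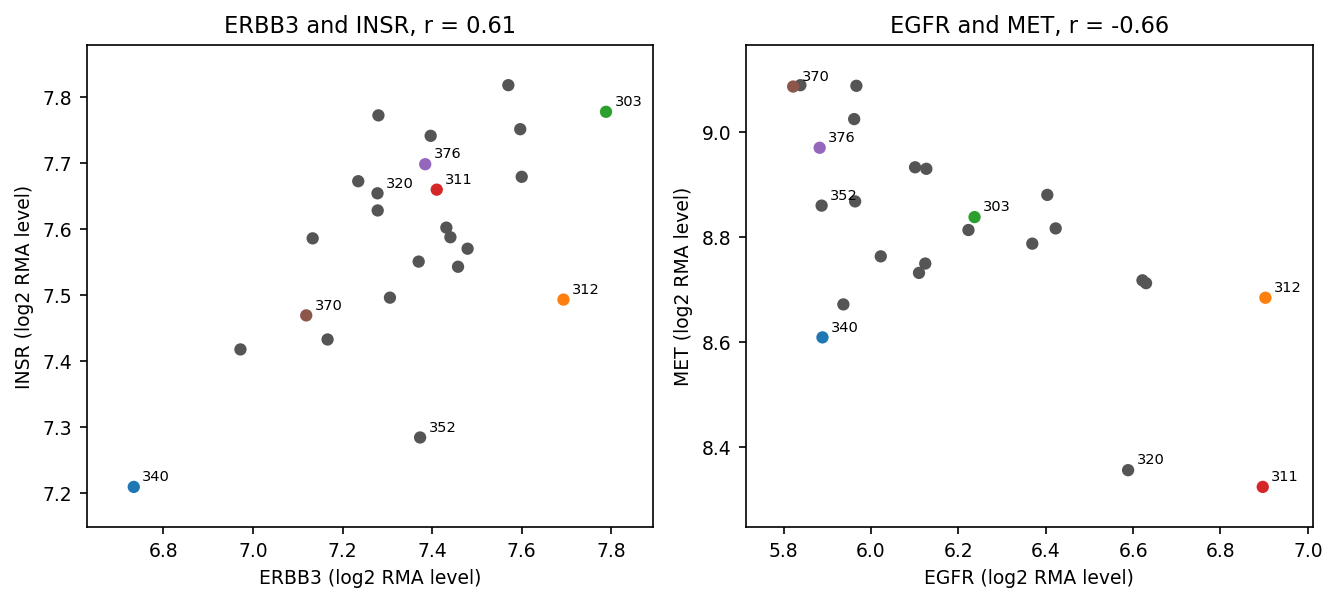
Levels of ERBB3 (x) and INSR (y) in the left panel and of EGFR (x) and MET (y) in the right panel, each point 1 of the 24 livers, axes in log2 RMA units, with single fetuses labelled by number. ERBB3 and INSR rise together with fetus 340 at the lower left, and MET is lowest in fetuses 311 and 320, at the high end of EGFR.

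The pairs of known partners did not pass the test. HGF and its receptor MET had an r of 0.210 (permutation p = 0.324, rho 0.285, p = 0.176), and limma adjusted p-values of 0.553 and 0.694. EGFR and its dimer partner ERBB3 had an r of 0.446 (permutation p = 0.0279, rho 0.520, p = 0.00992) at an adjusted p of 0.0942. Without fetus 274, which has a high EGFR level of 6.62 at an ERBB3 level of 7.13, r was 0.532 and the adjusted p 0.0315. The range of adjusted p-values for this pair was 0.0315 to 0.788. Without fetuses 311 and 312 its r was 0.380, and with the first principal component as a covariate it turned to -0.156 at an adjusted p of 0.788.

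INSR and IGF1R, which are close relatives and can form hybrid receptors, did not pass the test, with an r of -0.438 (permutation p = 0.0328, rho -0.405, p = 0.0491) and limma adjusted p-values of 0.193 and 0.433. Fetus 340 had the lowest INSR and the highest IGF1R, and without fetuses 340 and 352 r was -0.310. With the most variable of the probe sets that passed the filter r was -0.0899 at an adjusted p of 0.995. That setting took the third probe set of IGF1R and kept the same one of INSR. Over all alternatives the adjusted p ran from 0.307 to 0.995. CDKN2B had an r of 0.406 with INSR (permutation p = 0.0484) and of -0.413 with IGF1R (p = 0.0437), with limma adjusted p-values of 0.211 and 0.437 for the former and 0.451 and 0.435 for the latter. EGFR and CDKN2B had an r of 0.259 (permutation p = 0.222, rho 0.244, p = 0.250) and an adjusted p of 0.408. GHR and IGF1R had an r of -0.0615 (permutation p = 0.768), which cannot be interpreted because GHR was at background. In all, 28 pairs were computed, and among the 15 filtered ones 4 had a permutation p under 0.05 before adjustment.

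The number of genes that varied with a member differed widely. With ERBB3 as predictor 306 genes were higher and 304 lower of 3378 tested. Whether ERBB3 or EGFR had more depended on the setting, since EGFR had 762 against 670 at a filter limit of 5 and 758 against 575 without fetus 274. With EGFR as predictor 285 of 3379 genes (8.43%) were higher and 276 (8.17%) lower, with MET 179 were higher (5.3%) and 63 lower (1.87%), and with INSR 71 were higher and 50 lower. These lists overlapped. Of the 179 genes higher with MET 118 (65.9%) were also lower with EGFR. Of the 63 lower with MET 49 (77.8%) were higher with EGFR. Of the 71 genes higher with INSR 45 (63.4%) were also higher with ERBB3. Of the 50 lower with INSR 41 (82%) were lower with ERBB3. The calls with EGFR and MET, and with ERBB3 and INSR, are therefore not separate results. With IGF1R 1 gene was called (0.0296%), and with HGF and CDKN2B none (0%). At an unadjusted p under 0.05 in limma, 427 genes were counted for HGF, 363 for IGF1R, 393 for CDKN2B and 171 for GHR, which also had 0 calls.

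**Figure D3:**
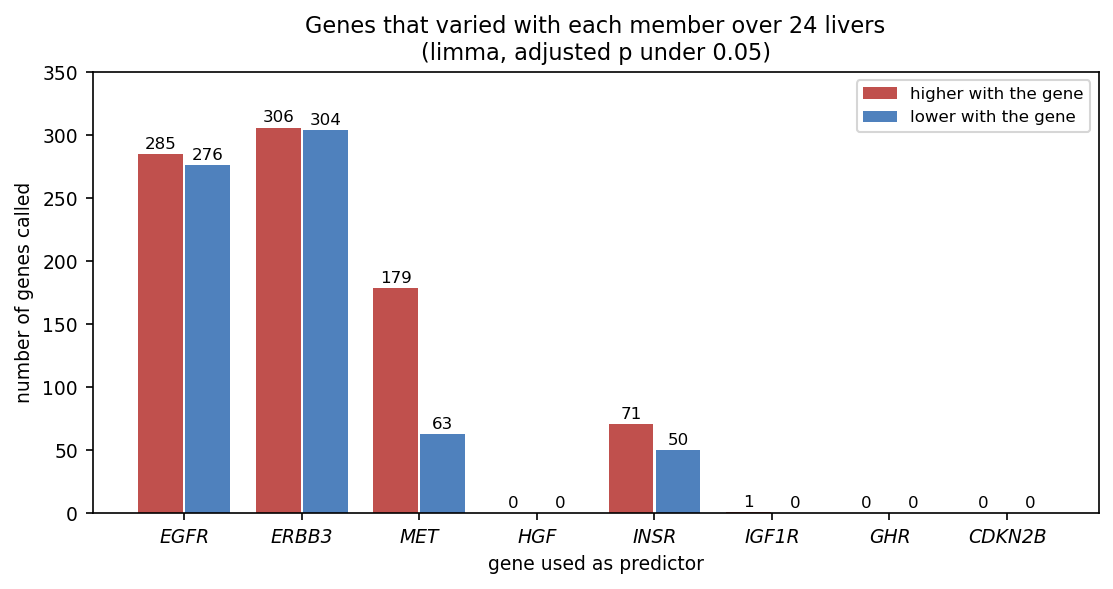
Number of genes (y axis, linear from 0) called higher (red) or lower (blue) with each of the 8 measured members as predictor, in limma fits over 24 livers at an adjusted p under 0.05. ERBB3 and EGFR have the highest bars, MET has more genes higher than lower, and HGF, GHR and CDKN2B have none.

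Of the 7 cell cycle markers that passed the filter, 4 were lower in livers where ERBB3 was high, in a fit that called 9% of all genes lower. The genes most alike in pattern were PSKH1, a protein kinase (r = 0.848), PEMT, which makes phosphatidylcholine in hepatocytes (0.846), and the membrane protein gene TM4SF5 (0.833). The most opposed were DCK, which phosphorylates deoxynucleosides for DNA synthesis (-0.872), the cell cycle kinase gene VRK1 (-0.840) and CCNE2, a cyclin of S phase entry (-0.823). Their limma adjusted p-values lay between 5.43e-05 and 0.000148. The 4 cell cycle markers had r from -0.63 for BUB1 to -0.78 for CDK1, and the cell cycle score had an r of -0.773 with ERBB3 (rho -0.791), or -0.747 without fetuses 311 and 312.

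Marker genes of other cell types were called with ERBB3 as well, beside 9.06% of all genes higher and 9% lower. Of the erythroid markers 3 of 7 were lower where ERBB3 was high (HEMGN, ALAS2 and TFRC), and the erythroid score had an r of -0.696. Of the endothelial markers 2 of 5 were higher (STAB2 and KDR), with an r of 0.664 for the score, and of the hepatocyte markers 1 of 7 was (APOA1), a count near the share of all genes. Without fetuses 311 and 312, 9 of the 10 marker calls with ERBB3 remained and STAB2 did not. The erythroid score ran from -1.61 in fetus 312 to 1.19 in fetus 274 and the endothelial score from -1.29 in fetus 340 to 1.41 in fetus 312. The part of these scores in the ERBB3 pattern was not tested. The first principal component had an r of -0.667 with ERBB3, and with it as a covariate 8 genes were called in place of 610. With the granulocyte score as a covariate 499 were called, and without fetus 327 the number was 406.

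EGFR varied with genes in both directions in about equal number, 285 and 276. It was below the filter, and the choice to name its most alike genes was made after its values were seen. CTSD, the lysosomal protease cathepsin D, was most alike (r = 0.843, limma adjusted p = 0.000428), followed by WDR1, which disassembles actin filaments (0.789, adjusted p = 0.000764), and HAL, which breaks down histidine (0.779). The most opposed were AFM, the plasma vitamin E carrier afamin (-0.842), SLCO1B3, a bile acid and drug uptake carrier of hepatocytes (-0.841), and GPR155 (-0.833). Without fetuses 311 and 312 the r of these 6 genes kept its sign, from 0.588 for WDR1 to 0.778 for CTSD and from -0.704 for GPR155 to -0.792 for SLCO1B3, and WDR1 alone lost the call at an adjusted p of 0.0964.

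All 4 granulocyte markers were higher where EGFR was high, in a fit that called 8.43% of all genes higher and 8.17% lower, and the granulocyte score had an r of 0.624 with EGFR but a rho of 0.317. Without fetuses 311 and 312 none of the 4 was called and the score had an r of 0.0749. The endothelial score had an r of 0.591 and a rho of 0.647 with EGFR, and without these livers 0.457 and 0.560. Of the 5 endothelial markers KDR was higher (0.62), and of the 7 hepatocyte markers 2 were lower (ALB at -0.74 and TF at -0.73). HEMGN, 1 of 7 erythroid markers (-0.63), and TOP2A, 1 of 7 cell cycle markers (-0.50), were also lower. Of the 9 marker calls with EGFR, ALB alone remained without fetuses 311 and 312, at an r of -0.603 and a limma adjusted p just under the threshold, and MPO changed sign to an r of -0.129. The number of genes called with EGFR was 561 in all livers, 274 without fetus 311, 373 without fetus 312, 58 without both and 58 with the granulocyte score as a covariate. The first principal component had an r of -0.778 with EGFR (-0.598 without fetuses 311 and 312), and 25 genes were called with it as a covariate.

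With MET, 179 genes were higher and 63 lower. SMARCA1, a chromatin remodelling ATPase (r = 0.847), MANEA, a mannosidase of glycan processing (0.841), and ZNRF2, a ubiquitin ligase (0.839), were most alike, each at a limma adjusted p of 0.000328. The most opposed were IDH2, the mitochondrial isocitrate dehydrogenase (-0.789), the gene annotated as GPIBB (-0.747) and the Fc receptor gene FCGR2B (-0.735). Of the hepatocyte markers 2 of 7 were higher where MET was high (TTR at 0.65 and TF at 0.60), in a fit that called 5.3% of all genes higher, and the hepatocyte score had an r of 0.631 with MET. Neither was called without fetuses 311 and 312, at an r of 0.472 and 0.450, and the score had an r of 0.444. The number of genes called with MET was 242 in all livers, 81 without fetus 311, 135 without 363, 149 without 370 and 69 without fetuses 311 and 312. With ranks in place of levels no gene was called with MET, although rho was 0.810 for MANEA, 0.743 for SMARCA1 and -0.755 for IDH2, each at an adjusted p of 0.0548.

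Genes varied with INSR in a smaller number. RPL14, a ribosomal protein gene (r = 0.771), NEK6, a mitotic kinase gene (0.752), and KARS, the lysyl-tRNA synthetase (0.740), were most alike, and GPR19 (-0.722), the cohesin loader gene NIPBL (-0.709) and the kinesin gene KIF5B (-0.706) most opposed, at limma adjusted p-values of 0.0207 to 0.0220. The count of 121 depended on single livers. It was 0 without fetus 303, 39 without 327, 55 without 352, 72 without 370, 73 without 329, 75 without 376, 80 without 313 and 288 without 312. When all INSR probe sets were averaged 2 genes were called.

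For IGF1R, HGF and CDKN2B the most alike genes are given as values. KLF3, a transcriptional repressor gene, was the gene called with IGF1R (r = 0.791, rho 0.670, limma adjusted p = 0.0328), and without fetus 376 it was at 0.689 with an adjusted p of 0.316. BRD2 (0.738) and CDC20 (0.730) followed, and ORM1 (-0.717, but a rho of -0.4), AHCYL1 (-0.716) and IER3IP1 (-0.708) were most opposed, none of them called. With HGF the highest values were 0.739 for the zinc transporter gene SLC39A7, 0.737 for the collagen receptor gene ITGA2 and 0.722 for PRPF38B, and the lowest -0.630 for the probe set annotated as MIR574, -0.610 for ASCC1 and -0.596 for SLC25A1. With CDKN2B they were 0.729 for TRMT61A, 0.629 for GUCA2B and 0.605 for BCL7C, and -0.786 for RFX7, -0.724 for SNRPG and -0.719 for SETD2, which methylates histone H3.

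HGF and the stellate and mesenchymal score had an r of -0.0728 and a rho of -0.0583. Of the 9 markers of these cells 6 passed the filter, and COL1A2 ranged from 6.86 to 9.18. HGF exceeded the 95th percentile of the background in 4 arrays, so this r cannot show whether HGF varies with these cells. For HGF and CDKN2B array-wide measures are given beside the levels. The median of each array over all probe sets, between 2.81 and 2.89, had an r of -0.573 with HGF and of 0.529 with CDKN2B, and the mean level of the background controls an r of 0.454 with CDKN2B. With array medians aligned, 15 genes were called with HGF, IGF1R or CDKN2B in place of 1. Their part in the levels of both genes was not tested further.

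**Figure D4:**
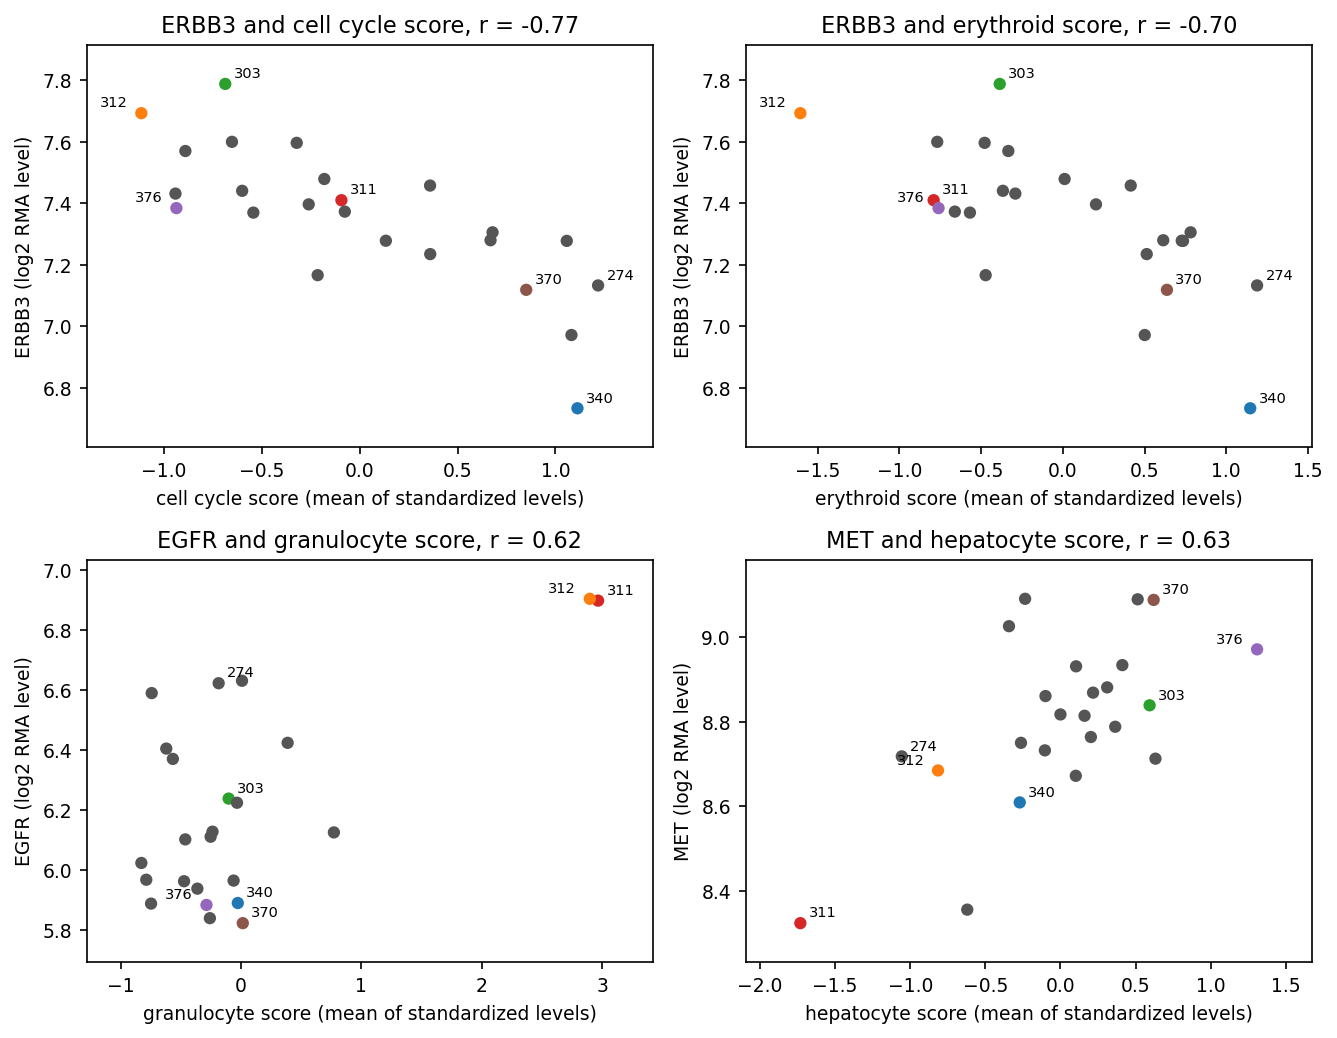
Level of ERBB3 against the cell cycle score and the erythroid score, of EGFR against the granulocyte score and of MET against the hepatocyte score (y axes in log2 RMA units, x axes the mean of standardized marker levels), each point 1 of 24 livers. ERBB3 falls along both scores (r = -0.77 and -0.70), fetuses 311 and 312 stand apart at granulocyte scores of 2.97 and 2.90 with the highest EGFR, and fetus 311 is lowest in both MET and the hepatocyte score.

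Genes of the pathways around the members were read from 9 lists with 93 genes, of which 82 have a probe set and 39 passed the filter. With EGFR 5 of the 39 were called higher and 4 lower (12.8% and 10.3%, against 8.43% and 8.17% of all genes), with ERBB3 3 higher and 5 lower (7.69% and 12.8%, against 9.06% and 9%), with MET 4 higher and 2 lower (10.3% and 5.13%, against 5.3% and 1.87%) and with INSR 0 higher and 2 lower (0% and 5.13%, against 2.1% and 1.48%). With HGF, IGF1R and CDKN2B the count was 0 of 39. These shares rest on 2 to 5 genes each where they are above 0. All 25 calls kept their sign without fetuses 311 and 312. Of the 9 with EGFR the calls of PRLR and TGFBR2 remained, of the 6 with MET those of PRLR, STAT5B and SOS2, of the 8 with ERBB3 5 (HPN, PIK3R1, CDK6, RB1 and TGFBR2), and both with INSR.

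Among ligands and receptors of the EGF family, 0 of 10 listed genes passed the filter. EGF had a median log2 level of 3.11, TGFA of 5.01, NRG1 of 3.65 and ERBB2, the usual partner of ERBB3, of 4.18. Of the EGFR feedback genes 2 of 5 passed, and USP8, a deubiquitinase that spares EGFR from lysosomal breakdown, was lower where EGFR was high (r = -0.618, limma adjusted p = 0.0121) and higher where MET was high (0.595, adjusted p = 0.0324). Of the 7 genes for activation and inhibition of HGF 2 passed, HGFAC and HPN, both of which encode proteases that cut pro-HGF into its active form. HPN was higher where ERBB3 was high (r = 0.826, rho 0.823, limma adjusted p = 0.000444), and had an r of 0.0556 with HGF and 0.165 with MET.

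In the insulin and IGF list 8 of 15 genes passed, and IGF2R, which clears IGF2 (r = 0.663), and IRS2, an adaptor of INSR and IGF1R (0.541), were higher and GSK3B, a kinase that AKT inhibits (-0.562), lower where EGFR was high. PIK3R1, the regulatory subunit of PI3K, was lower where ERBB3 was high (-0.619). Of these 8 genes 0 were called with INSR or IGF1R, beside 2.1% of all genes higher and 1.48% lower with INSR and 0.0296% with IGF1R. IGF2 had an r of 0.478 with IGF1R at a limma adjusted p of 0.451. In the growth hormone list 4 of 9 passed. PRLR, the prolactin receptor, was higher where MET was high (r = 0.761, adjusted p = 0.00186) and lower where EGFR was high (-0.606), and STAT5B, which carries the signals of GHR and PRLR, was lower where MET was high (-0.642).

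In the RAS and MAPK list 10 of 19 genes passed and 3 were called. The phosphatase gene PTPN11 was lower (r = -0.555) and the feedback inhibitor gene SPRY1 higher (0.542) where ERBB3 was high, and the exchange factor gene SOS2 was higher where MET was high (0.574). FRS2, the adaptor of FGF receptors and the 1 gene of 7 in the FGF list that passed, was higher where MET was high (0.657). In the TGF-beta list 3 of 7 passed, and the receptor gene TGFBR2 was higher with EGFR (0.681) and with ERBB3 (0.608).

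In the list of cell cycle entry 9 of 14 genes passed. RB1, the target of the CDK4 and CDK6 kinases, was lower where ERBB3 was high (r = -0.773, rho -0.787, limma adjusted p = 0.000476) and lower where EGFR was high (-0.549). CDK6 was lower with ERBB3 (-0.551) and with INSR (-0.605), CDKN2C, a relative of CDKN2B, was lower with ERBB3 (-0.544), and CDKN1B, the inhibitor p27, was lower with INSR (-0.611). MYC was higher with EGFR (0.719) and lower with MET (-0.601), and CCND2, a D-type cyclin, was higher with EGFR (0.541). With CDKN2B, which had 0% of all genes called, the 9 genes had a median r of -0.206 against -0.0805 over all genes.

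**Figure D5:**
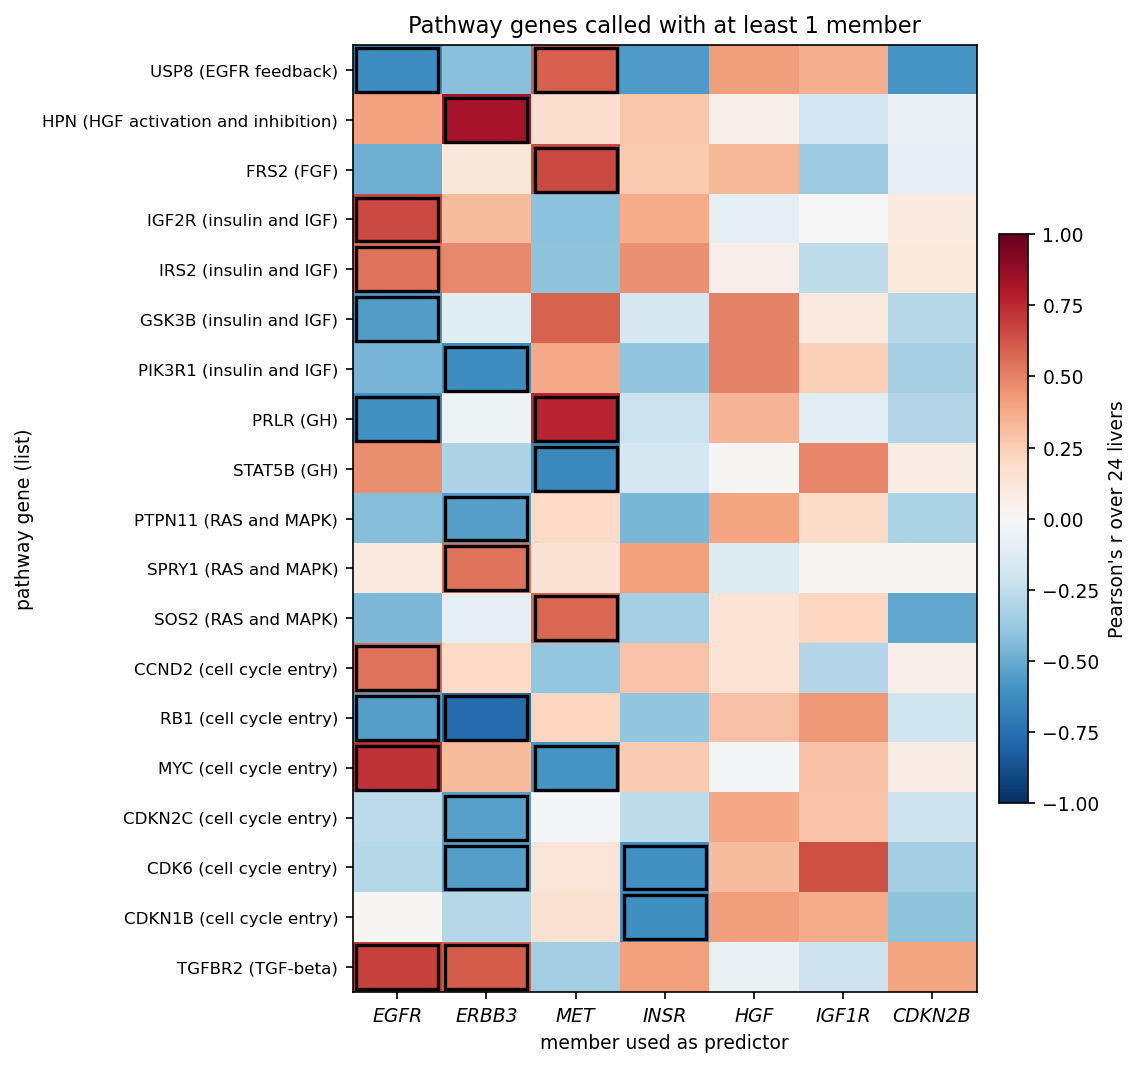
Pearson's r over 24 livers (colour, from -1 in blue to 1 in red) of the 19 pathway genes called with at least 1 member (y axis, with the list in brackets) against 7 members used as predictors (x axis). Black outlines mark the 25 calls at a limma adjusted p under 0.05; HPN with ERBB3 has the highest r of these, 0.826, and the columns of HGF, IGF1R and CDKN2B hold no outline.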

How the data were processed

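RNA from 24 fetal pig livers was hybridized to Affymetrix Snowball arrays. The deposited table holds log2 levels of 47845 probe sets, which the authors computed by RMA in Expression Console after a quality check in GCOS 1.1.1, and which were not filtered. No source used here names the genome build of the probes, so neither coordinates nor sequences are reported. An array has no read depth, and the number of arrays and the background limit the precision. The labels give no growth group, sex or dam of a fetus, so no groups were compared.

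The platform annotation gives symbols to 26426 probe sets. A gene was represented by its probe set with the highest mean. It passed with a log2 level of 6 or more in 18 of 24 arrays. The authors name the same share of 75% but applied it to probe sets detected as present, so their filter differs. Each filtered gene was fitted on each member with limma 3.58.1 (lmFit, eBayes with trend), with Benjamini-Hochberg adjustment over all genes. Single pairs were given Pearson's r, Spearman's rho and a two-sided permutation p from 100000 resamples for each. The fits were tested on simulated levels that were independent between genes and livers. Such levels lack shared dams, genes that vary together and outlying livers, so this test cannot show how these affect the calls. The members, the gene lists and the tests were chosen with earlier results of these data known. Named were all members, called and fixed pairs, and the 3 genes most alike and the 3 most opposed to each member but GHR. Per list and member, up to 3 called genes with the highest absolute r were also named. EGFR with MET, and CDKN2B with INSR and with IGF1R, were neither called nor fixed pairs. They were added to this rule with their values known. Unnamed locus identifiers were left out. Marker scores are means of standardized levels over the filtered genes of a list of at least 3.

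Alternatives were filter limits of 5 and 7 and of 6 in all 24 arrays, averaged probe sets, aligned array medians and ranks. Another took, for each gene, the probe set with the largest SD among those that passed the filter. Others left out fetuses 311 and 312, fetus 274 or each liver in turn, or used the first principal component as a covariate. The granulocyte score and the background level as covariates were added after seeing the data. The work used pandas 2.3.3, numpy 2.4.6, scipy 1.17.1 and matplotlib 3.10.9 under Python 3.11.15, and R 4.3.3.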

Additional observations from a re-analysis of the deposited data

How the results depend on the processing

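Among the member pairs and the genes most alike or opposed, the sign changed only where neither value was called. With the first principal component as a covariate EGFR with ERBB3 went from an r of 0.446 to -0.156, and with averaged probe sets HGF with MET from 0.210 to -0.0678. With the probe set of the largest SD GHR with IGF1R stood at 0.360, HGF with ASCC1 at 0.114, and IGF1R with ORM1 at 0.0702 and with IER3IP1 at 0.00656, and on leaving out a liver GHR with IGF1R ran from -0.179 to 0.0171. The ERBB3 and INSR pair was not called with a limit of 5 (r 0.611, adjusted p = 0.0540), with ranks (0.492) or with the first principal component as a covariate (0.451), and leave-one-out r ran from 0.443 to 0.693. The number of called pairs was then 0 with ranks and with that covariate, and 0 to 1 on leaving out a liver. It was also 0 with the mean of all probe sets, where INSR did not pass and ERBB3 with MET was the 1 pair that could be tested. With a limit of 5, at which EGFR also passes, the EGFR and MET pair was called in its place. In the test with EGFR as predictor alone, MET was no longer past the threshold with averaged probe sets (-0.585), ranks (-0.573), without fetuses 311 and 312 (-0.549), with the component (-0.462) and with the granulocyte score (-0.538), and r ran from -0.730 to -0.553 on leaving out a liver. In the same kind of test ERBB3 was past it without fetus 274 (0.532), with r from 0.359 to 0.532 on leaving out a liver.

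Genes called with EGFR numbered 307 with a limit of 7, 51 with averaged probe sets, 275 with ranks, 58 without fetuses 311 and 312, 25 with the component and 58 with the granulocyte score (274 to 758 on leaving out a liver). With ERBB3 they numbered 369, 308 and 8 for the limit of 7, averaged probe sets and the component (406 to 640). With MET they numbered 115, 130, 0, 69, 132, 71 and 154 for the limit of 7, averaged probe sets, ranks, omission of fetuses 311 and 312, the component, the granulocyte score and the background level (81 to 293). With INSR they numbered 2 with averaged probe sets, 73 with ranks, 284 without fetuses 311 and 312, 0 with the component, 309 with the granulocyte score and 191 with the background level (0 to 288). With HGF, IGF1R or CDKN2B they numbered 0 and 2 with limits of 5 and 7, 3 with 6 in all arrays, 0 with averaged probe sets, 2 with the largest SD, 15 with aligned medians, 0 with ranks, 8 without fetuses 311 and 312, 4 with the component, 13 with the granulocyte score and 2 with the background level (0 to 5). Members that passed the filter were 2 with averaged probe sets, since those at background pull the mean down. The causes of the other changes were not tested. Of the 24 genes named with EGFR, ERBB3, MET and INSR, 12 lost the call with the component as a covariate, 7 with ranks and 1 without fetuses 311 and 312.

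No paired analysis was possible because the labels give the fetuses no shared replicate numbers. GHR was at the level of the background. EGFR and HGF lay above the median of the background controls but in most livers did not exceed their 95th percentile. INSR and IGF1R differ between their probe sets. These points limit what the spans of these genes can show.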
